A study of Mus musculus with 15 samples.

Results

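A set of 9 genes for surface molecules by which a B cell engages T cells or reports its own activation was followed through an IgE and IgG1 plasma cell culture: Cd80, Cd86, Icosl, Cd274, Pdcd1lg2, Cd83, Cd69, Cd24a and Cd44. They were listed by symbol, with earlier results of these data known. Each symbol matched exactly 1 of the 51912 genes in the deposited table, so 9 of 51912 genes are described here. All 9 passed the filter on low counts. CD80 and CD86 are the B7 ligands that an antigen-presenting cell shows to CD28 and CTLA-4 on T cells, ICOSL is the ligand of ICOS, and PD-L1 (Cd274) and PD-L2 (Pdcd1lg2) are the ligands of the inhibitory receptor PD-1. CD83 and CD69 appear on B cells after activation through the antigen receptor or CD40, and CD24 and CD44 are surface glycoproteins whose levels have long been used to stage B cells. In germinal centres such molecules shape the exchange with follicular helper T cells, and a B cell that becomes a plasma cell gives up much of its antigen-presenting role.

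The samples were 15 polyA RNA libraries from wild-type mouse B cells, 5 groups of 3 biological replicates, with no drug treatment in any group. For every group B cells had been grown 6 days on 40LB cells, a fibroblast feeder line made to stimulate B cells through CD40, with IL-4 at 100 ng/ml. D6 is the unsorted culture at day 6; IgE iGC, IgG1 iGC, IgE PC and IgG1 PC are flow-sorted at day 8, after 2 more days off the feeder in medium without stimulation, where PC are plasma cells and iGC, a name the labels do not expand, are the other sorted cells of each isotype. A difference from D6 therefore cannot be told apart into time, loss of feeder and IL-4, sorting and isotype. The design text calls the replicates independent without saying whether they differ by animal or by culture, and the p-values measure the spread between these libraries.

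Library totals ran from 17740876 to 54067953 expected counts (RSEM's estimates of reads per gene), and within a group the log2 profiles of 2 libraries correlated at r = 0.978 to 0.993, lowest among the IgG1 PC libraries. IgG1 PC replicate 1 was the lowest library of its group for 8 of the 9 genes, so values without it are given where they matter. Summed over each list, defining markers matched the labels. The 8 plasma cell markers summed to 17099 to 19540 CPM in IgE PC and 9536 to 13902 in IgG1 PC, against 580.4 to 1094 CPM elsewhere. The 8 B cell markers summed to at least 4202 CPM in every library. Jchain made up most of the PC sums, with means of 12642 CPM in IgE PC and 7172 in IgG1 PC. Within IgG1 PC, replicate 1 had the highest plasma cell marker sum, 13902 CPM against 10331 in replicate 2 and 9536 in replicate 3. Each of the 8 plasma cell markers was called higher in PC than in iGC of the same isotype. Against D6, 7 were called higher and 1 lower in each PC group, and Slamf7 read 555 CPM in D6, 483 in IgE PC and 287 in IgG1 PC. All 18 fibroblast markers together summed to 282 to 432 CPM in D6, 86.1 to 226 in IgG1 PC, 67.2 to 90.6 in IgE iGC, 45.7 to 80.5 in IgG1 iGC and 27.9 to 44.2 in IgE PC. The 12 myeloid and dendritic cell markers summed to 124 to 129.3 CPM in IgG1 iGC, 63.2 to 70.5 in IgE iGC, 52.5 to 53.0 in D6, 44.4 to 68.5 in IgG1 PC and 11.2 to 13.0 in IgE PC, with Flt3 and Zbtb46 making up most of it. Of the other 10, Itgam reached a mean of 6.12 CPM and Adgre1 of 1.85 CPM, and the rest stayed below 1 CPM in every group, with S100a9 at 0 throughout. The 9 T cell markers summed to 14.0 to 19.1 CPM in D6, 26.4 to 29.8 in IgE iGC and 44.4 to 46.9 in IgG1 iGC. In PC they summed to 62.5 to 71.5 CPM for IgE and 31.1 to 36.4 for IgG1. Cd2 reached a mean of 44.0 CPM (IgG1 iGC), Cd28 of 61.5 (IgE PC) and Trac of 1.59 (D6). The rest of that list stayed below 1 CPM in every group, with Cd3e at 0 in 4 groups and near 0 in IgG1 PC. In bulk libraries, fewer cells of a type and less RNA per cell cannot be told apart.

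The RefSeq promoter table for GRCm38.p6 held 5 of the 9 genes. The letters just before the RefSeq start are shown for 4 of those, which took different courses between the groups. The window not shown is that of Icosl, which held no match to any of the motifs described below. Cd274 and Pdcd1lg2 are neighbours on chromosome 19, on the plus strand, with 22823 bases between the end of the former and the start of the latter. Cd80 and Cd44 are the members whose mean level was highest in D6. Each run is the 250 bases before the RefSeq start, 5′ to 3′ on the gene's strand, with capitals for a match to the STAT6-type spacing, TTC and GAA with 4 bases between, or to the AP-1 motif TGANTCA.
Cd274: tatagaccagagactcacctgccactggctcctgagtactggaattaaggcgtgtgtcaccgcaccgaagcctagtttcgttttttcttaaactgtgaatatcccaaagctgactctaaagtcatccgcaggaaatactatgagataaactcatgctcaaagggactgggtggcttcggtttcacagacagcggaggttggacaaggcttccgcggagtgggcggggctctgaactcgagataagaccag
Pdcd1lg2: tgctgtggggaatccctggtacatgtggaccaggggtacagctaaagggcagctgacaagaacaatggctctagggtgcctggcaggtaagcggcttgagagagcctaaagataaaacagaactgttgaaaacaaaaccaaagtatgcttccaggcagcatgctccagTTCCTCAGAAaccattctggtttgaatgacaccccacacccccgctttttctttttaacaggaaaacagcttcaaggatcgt
Cd80: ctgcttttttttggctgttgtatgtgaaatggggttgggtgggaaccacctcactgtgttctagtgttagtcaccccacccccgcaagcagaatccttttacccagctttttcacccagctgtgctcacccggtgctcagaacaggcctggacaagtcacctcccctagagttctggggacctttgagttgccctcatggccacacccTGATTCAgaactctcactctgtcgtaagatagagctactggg
Cd44: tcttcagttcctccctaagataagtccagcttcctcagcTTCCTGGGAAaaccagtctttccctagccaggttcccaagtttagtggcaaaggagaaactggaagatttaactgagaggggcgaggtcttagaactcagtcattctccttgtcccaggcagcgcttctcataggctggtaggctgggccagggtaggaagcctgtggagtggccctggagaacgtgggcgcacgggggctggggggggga
Their places are chr19:29367188-29367437 for Cd274, chr19:29410669-29410918 for Pdcd1lg2, chr16:38458683-38458932 for Cd80 (plus strand) and chr2:102901666-102901915 for Cd44 (minus strand). The Cd80 window lies before the RefSeq start but inside the span that GENCODE vM21 gives that gene, chr16:38455561-38496335. Counting back from -1 at the last base before the start, the STAT6-type match lay at -82 to -73 in Pdcd1lg2 and at -211 to -202 in Cd44, and the TGANTCA match at -42 to -36 in Cd80. The Cd274 window held neither. Over both strands and 300 bases, from 250 before the start to 50 after it, the STAT6-type pattern occurs in 6.95% and TGANTCA in 7.81% of 32851 promoters of the table. The kappa B pattern (GGG, any 2 bases, TTTCC), found in 1.63% of all promoters, was in none of the 5, and the NFAT core GGAAA, found in 61.3%, was in those of Cd274, Pdcd1lg2 and Cd44, where 1 of its 2 matches overlapped the STAT6-type match. A match describes letters only.

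Levels below are read counts scaled to a common library total (CPM) after TMM scaling, which sets libraries on a common scale by their bulk of genes. Tests are edgeR quasi-likelihood contrasts from 1 fit of all 15 libraries, and a gene is called where the p-value adjusted over all 15692 tested genes is below 0.05. From IgE iGC to IgE PC 3 of the 9 genes were called higher and 5 lower; over all tested genes 64.1% were called, 30.5% higher and 33.6% lower. From IgG1 iGC to IgG1 PC 2 were called higher and 5 lower, beside 59.1% of all genes, 30.1% higher and 29% lower. IgE PC and IgG1 PC differed in all 9, with 3 higher and 6 lower in IgE, where the background was 58.1%, 27.4% higher and 30.7% lower. IgE iGC and IgG1 iGC differed in 3 genes, 1 higher and 2 lower in IgE, beside 3.87% of all genes, 1.99% higher and 1.88% lower. Against D6, 7 genes were higher and 2 lower in each iGC group, with a background of 69.1% (32.8% higher, 36.3% lower) for IgE iGC and 68.4% (32.4% higher, 36% lower) for IgG1 iGC. In IgE PC 5 were higher and 3 lower than in D6, beside 76.4% of all genes (36.9% higher, 39.5% lower), and in IgG1 PC 6 and 2, beside 71.9% (35.9% higher, 36% lower). Those 4 comparisons share the D6 libraries. Since most genes were called between the stages and against D6, the counts there say little, and the size and direction for each gene carry the description.

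**Figure D1:**
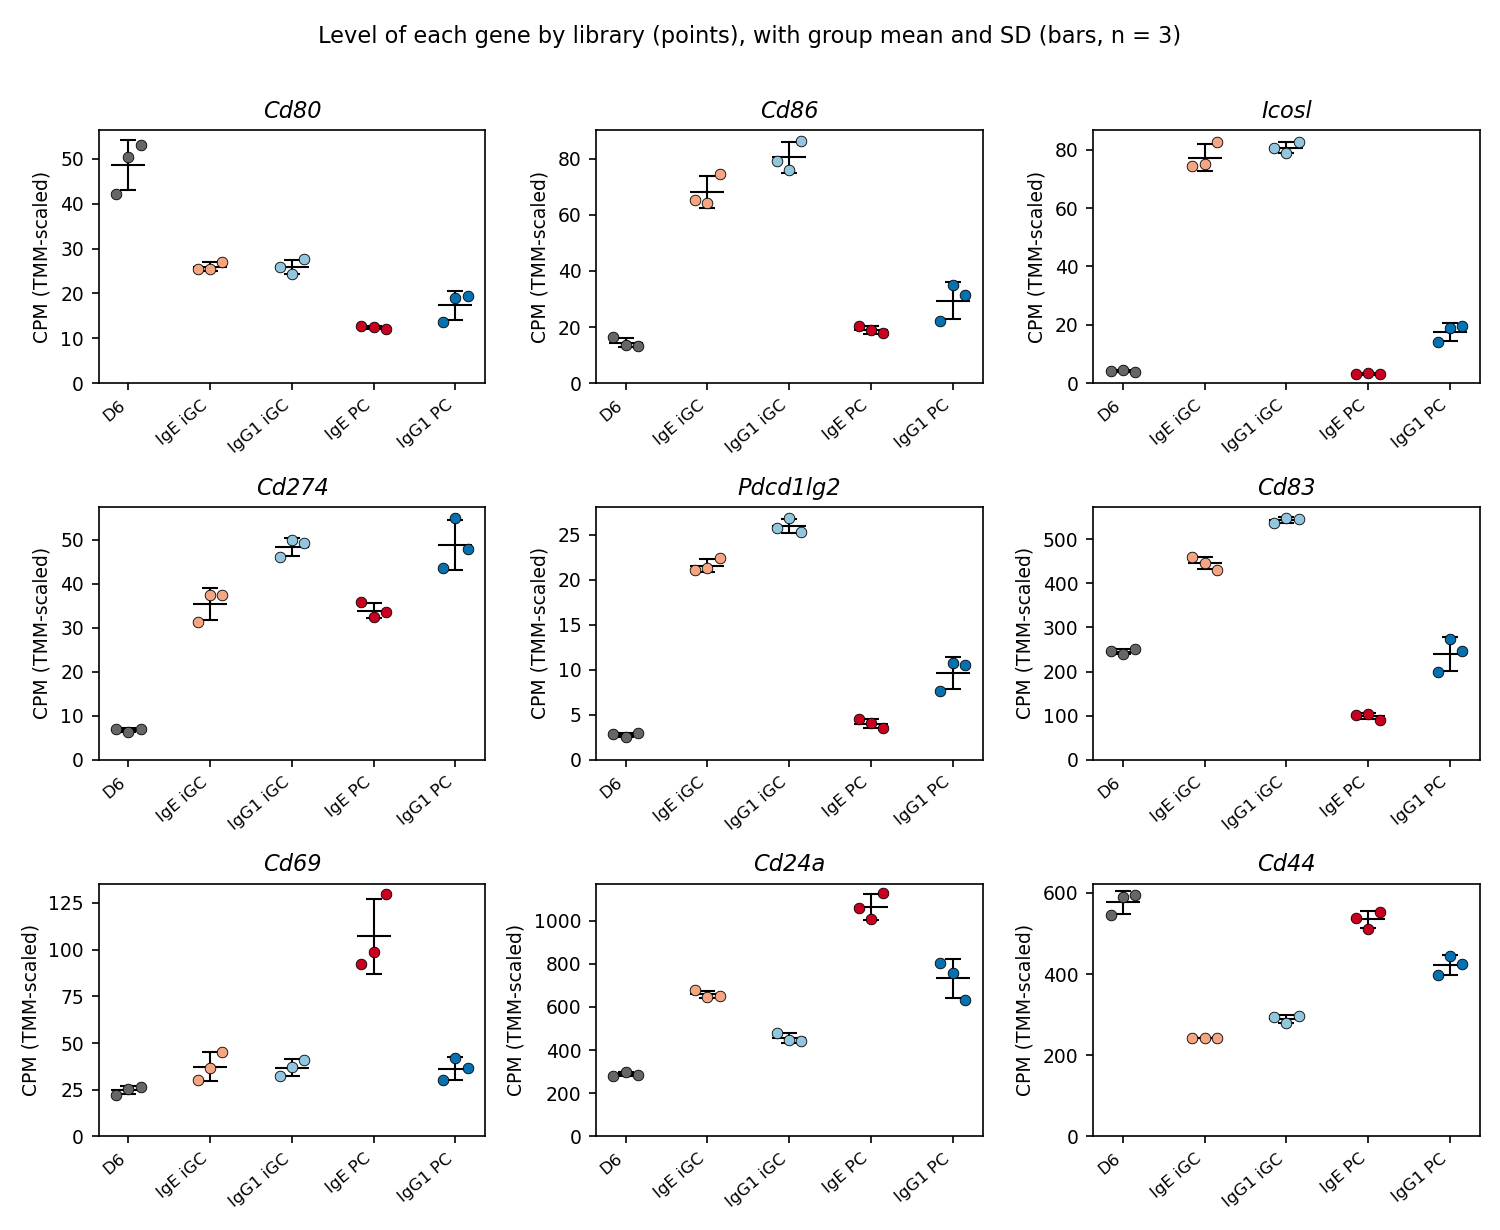
Level of each of the 9 genes (y axis, TMM-scaled CPM from 0) in the 5 groups (x axis); points are the 3 libraries and bars the group mean and SD. Icosl is between 74.3 and 82.6 CPM in both iGC groups and at most 4.57 CPM in D6 and IgE PC, and Cd69 stands at 92.5 CPM or more in the 3 IgE PC libraries and at 45.5 CPM or less in the other libraries.

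Cd80 (ENSMUSG00000075122, chr16:38455561-38496335, plus strand, GRCm38) encodes CD80, the B7 ligand with the higher affinity for CTLA-4. Its libraries read 42.3, 50.5 and 53.0 CPM in D6, 25.5, 25.3 and 27.1 in IgE iGC and 25.9, 24.4 and 27.6 in IgG1 iGC. The PC libraries read 12.7, 12.4 and 12.0 CPM for IgE and 13.6, 19.0 and 19.4 for IgG1. Cd80 was thus highest in D6, overlapping between the 2 iGC groups (-0.00, 95% interval -0.25 to 0.25), and lowest in IgE PC, where every library lay under every IgG1 PC library. It fell from iGC to PC by 1.06 on the log2 scale in IgE (SE 0.12, adjusted p = 8.58e-07) and by 0.58 in IgG1 (SE 0.11, adjusted p = 4.63e-04). The difference between these falls was -0.49 (SE 0.16, adjusted p = 0.0237), and it was no longer called when any 1 of 4 libraries was left out (IgE iGC 3, IgE PC 3, IgG1 iGC 2 or IgG1 PC 3), with values of -0.46 to -0.40. Against D6, Cd80 was 1.87-fold lower in IgE iGC, 1.87-fold lower in IgG1 iGC, 3.92-fold lower in IgE PC and 2.79-fold lower in IgG1 PC, all called. Among the D6 libraries replicate 1 had both the lowest Cd80 and the lowest fibroblast marker sum, 282 CPM against 422 and 432. It was the lowest D6 library for 4 of the 9 genes. In IgG1 PC the lowest Cd80 was in replicate 1, whose fibroblast sum was 226 CPM, against 86.1 in replicate 2 and 226 in replicate 3. The part of feeder RNA in these levels was not tested.

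Cd86 (ENSMUSG00000022901, chr16:36603869-36666081, minus strand), the other B7 ligand, took a different course. Libraries read 16.4, 13.7 and 13.2 CPM in D6, 65.4, 64.4 and 74.6 in IgE iGC and 79.3, 75.9 and 86.5 in IgG1 iGC. In PC they read 20.5, 18.8 and 17.8 CPM for IgE and 22.0, 35.0 and 31.3 for IgG1. On the TMM scale D6, the group highest for Cd80, was the lowest for Cd86, and the iGC groups stood above all others. In TPM IgE PC was the lowest, at 8.74, 7.63 and 6.86 against 12.48, 10.99 and 11.01 in D6. Cd86 was 4.70-fold higher than D6 in IgE iGC (log2 2.23, SE 0.14, adjusted p = 1.89e-09) and 5.57-fold higher in IgG1 iGC (log2 2.48, SE 0.14, adjusted p = 6.89e-10). From iGC to PC it fell by 1.84 in IgE (SE 0.14, adjusted p = 1.14e-08) and by 1.44 in IgG1 (SE 0.13, adjusted p = 2.78e-07). The log2 difference between the falls was -0.39, with an approximate 95% interval of -0.81 to 0.02 and an adjusted p of 0.106; without IgG1 PC replicate 1 it was -0.55 and called (adjusted p = 0.00218). It was also called with total-count scaling (-0.64, adjusted p = 0.0244) and with limma on TPM (-0.76, adjusted p = 0.0263). IgE PC lay below IgG1 PC (log2 -0.64, SE 0.14, adjusted p = 9.94e-04). The small rise of IgE PC over D6, 0.40 (SE 0.14, adjusted p = 0.0179), turned to -0.13 when libraries were scaled by total count, with the median of all genes in that comparison moving from -0.04 to -0.57. On TPM, with limma, this difference was -0.52 and called lower in IgE PC (adjusted p = 0.00987).

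The balance of the 2 B7 genes can be read within a library, which removes the scaling between libraries. In TPM, which is per transcript length, the ratio of Cd86 to Cd80 was 0.225 ± 0.0473 in D6, 2.02 ± 0.0848 in IgE iGC, 2.47 ± 0.135 in IgG1 iGC, 1.08 ± 0.0782 in IgE PC and 1.56 ± 0.0237 in IgG1 PC (mean ± SD, n = 3). So Cd80 transcripts outnumbered those of Cd86 in D6, and those of Cd86 were in excess in every library of the other 4 groups. No 2 groups overlapped in this ratio. For each of the 6 comparisons made, the 2-sided exact permutation test over libraries gave p = 0.1, the smallest that 3 against 3 libraries allow, and 0.1 after adjustment over the 12 ratio tests.

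**Figure D2:**
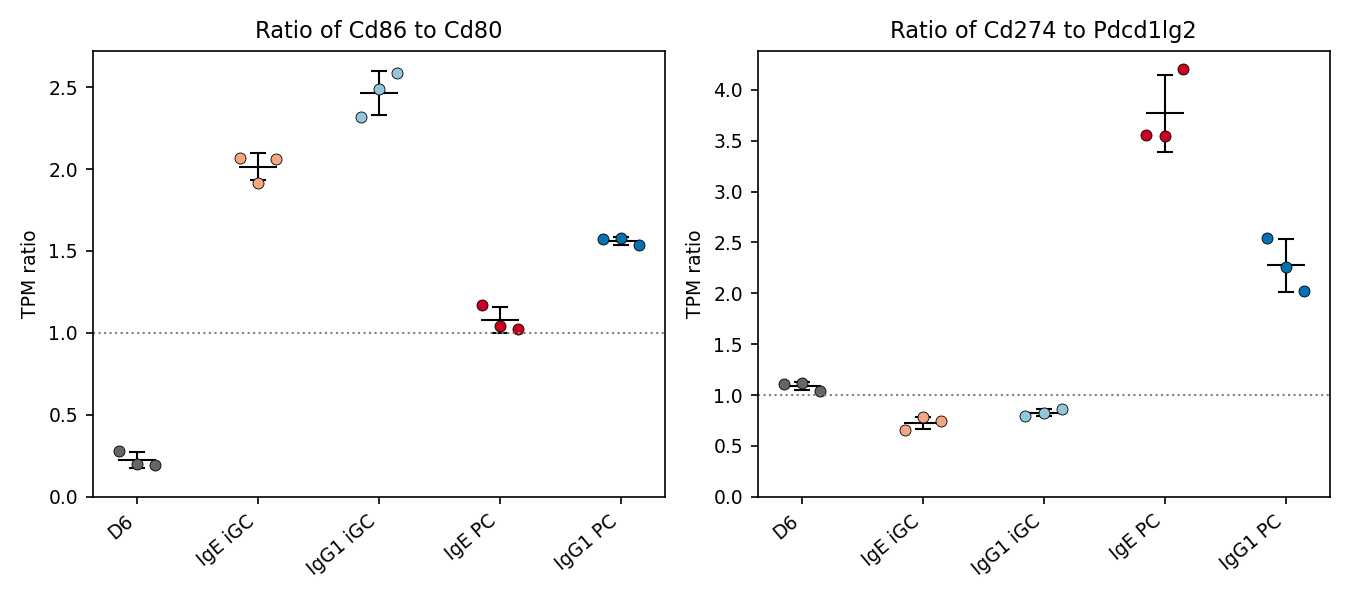
Ratio of the TPM of Cd86 to that of Cd80 (left) and of Cd274 to Pdcd1lg2 (right) in each library (points) of the 5 groups, with mean and SD (n = 3); the dotted line marks equal TPM. The left ratio is below 0.280 in all D6 libraries and at least 1.03 elsewhere, and the right one is at least 2.02 in all PC libraries and lower in every other library.

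Icosl (ENSMUSG00000000732, chr10:78069302-78083913, plus strand), whose product engages ICOS on follicular helper T cells, had the widest range of the 9, a 25.2-fold ratio between its highest and lowest group means. Its libraries read 4.22, 4.57 and 3.78 CPM in D6, 74.3, 75.0 and 82.5 in IgE iGC and 80.7, 78.7 and 82.6 in IgG1 iGC. PC libraries read 3.05, 3.57 and 3.00 CPM for IgE and 14.0, 18.7 and 19.6 for IgG1. The iGC groups overlap, IgG1 PC lies between them and D6, and IgE PC lies below D6 with no overlap. The rise from D6 was 18.4-fold in IgE iGC (log2 4.20, SE 0.12, adjusted p = 3.30e-13) and 19.2-fold in IgG1 iGC (log2 4.26, SE 0.12, adjusted p = 3.30e-13). From iGC to PC, Icosl fell 24.1-fold in IgE (log2 -4.59, SE 0.12, adjusted p = 8.34e-14) and 4.60-fold in IgG1 (log2 -2.20, SE 0.10, adjusted p = 7.19e-11). The 2 falls differed by -2.39 (SE 0.16, adjusted p = 5.74e-08), and by -2.51 without IgG1 PC replicate 1. Among genes with TPM above 0, the mean rank of Icosl went from the 87.2 percentile in IgE iGC to the 51.1 percentile in IgE PC. IgE PC was lower than D6 (log2 -0.39, SE 0.14, adjusted p = 0.0165), a call lost without D6 replicate 2, IgE PC replicate 1 or IgE PC replicate 3 (-0.34 to -0.28). With total-count scaling the difference was -0.92 (adjusted p = 9.65e-05), beside a median of -0.57 over all genes. On TPM, with limma, it was -0.88 (adjusted p = 1.43e-04).

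Cd274 (ENSMUSG00000016496, chr19:29367455-29388095, plus strand) encodes PD-L1. Libraries read 7.08, 6.26 and 6.90 CPM in D6, 31.2, 37.5 and 37.4 in IgE iGC and 46.1, 49.9 and 49.2 in IgG1 iGC. For PC they read 35.8, 32.3 and 33.5 CPM in IgE and 43.6, 55.0 and 47.9 in IgG1. On this scale IgE iGC and IgE PC overlap, IgG1 iGC and IgG1 PC overlap, and every IgE library lies under every IgG1 library. IgE was lower than IgG1, with a log2 difference of -0.45 (SE 0.09, adjusted p = 0.00733) in iGC and of -0.53 (SE 0.09, adjusted p = 1.09e-04) in PC. The iGC call was lost without IgE iGC replicate 1 (-0.37, adjusted p = 0.0518) and with limma on the deposited TPM (adjusted p = 0.102). Between stages the log2 difference was -0.06 in IgE (95% interval -0.26 to 0.14, adjusted p = 0.585) and 0.02 in IgG1 (-0.18 to 0.21, 0.896). Scaled by total count, these became -0.53, which was called lower, and -0.21, beside medians over all genes of -0.55 and -0.22. On the deposited TPM, with limma, the stage differences were -0.73 in IgE (adjusted p = 1.48e-04) and -0.56 in IgG1 (adjusted p = 0.00148), both called lower in PC. In TPM the stages did not overlap, at 13.6, 16.7 and 16.7 in IgE iGC against 9.66, 8.72 and 8.54 in IgE PC, and at 20.3, 22.6 and 22.1 in IgG1 iGC against 11.1, 17.5 and 15.1 in IgG1 PC, whose lowest library lay under all of IgE iGC. The stage comparison of Cd274 thus depended on the scale. Against D6, Cd274 was 5.23-fold higher in IgE iGC, 7.17-fold in IgG1 iGC, 5.02-fold in IgE PC and 7.24-fold in IgG1 PC, all called. In GENCODE vM21 a gene model on the opposite strand overlaps exons of Cd274, and the strand setting of the counting is not given in the sources used here.

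Pdcd1lg2 (ENSMUSG00000016498, chr19:29410919-29471161, plus strand), the neighbouring gene for PD-L2, separated from Cd274 at the PC stage. Its libraries read 2.81, 2.49 and 2.94 CPM in D6, 21.0, 21.3 and 22.4 in IgE iGC and 25.7, 26.8 and 25.3 in IgG1 iGC. PC libraries read 4.47, 4.04 and 3.52 CPM for IgE and 7.59, 10.8 and 10.5 for IgG1. On the TMM scale it was, like Cd274, lowest in D6 and high in iGC, but unlike for Cd274, every PC library lay under every iGC library. In TPM IgE PC lay below D6, at 2.72, 2.46 and 2.03 against 3.08, 2.78 and 3.26. In TPM Cd274 also fell from iGC to PC within each isotype. The rise of Pdcd1lg2 from D6 was 7.83-fold in IgE iGC and 9.44-fold in IgG1 iGC. It fell from iGC to PC by 5.35-fold in IgE (log2 -2.42, SE 0.12, adjusted p = 7.51e-11) and 2.68-fold in IgG1 (log2 -1.42, SE 0.11, adjusted p = 3.64e-08). The falls differed by -0.997 (SE 0.16, adjusted p = 1.94e-04). IgE PC was lower than IgG1 PC (log2 -1.27, SE 0.12, adjusted p = 4.83e-07), and the iGC groups differed by -0.27 (95% interval -0.51 to -0.03, adjusted p = 0.229). The 0.55 log2 excess of IgE PC over D6 (adjusted p = 0.00158) became 0.02 with total-count scaling and -0.25 on TPM with limma (adjusted p = 0.138).

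In TPM the ratio of Cd274 to Pdcd1lg2 was 1.09 ± 0.0430 in D6, 0.726 ± 0.0624 in IgE iGC, 0.825 ± 0.0345 in IgG1 iGC, 3.77 ± 0.380 in IgE PC and 2.27 ± 0.263 in IgG1 PC (mean ± SD, n = 3). The 2 PD-1 ligand genes were thus near parity in D6, PD-L2 transcripts were in slight excess in every iGC library, and PD-L1 transcripts were in excess in every PC library. The groups did not overlap, and each of the 6 exact permutation tests again gave the floor of p = 0.1.

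Cd83 (ENSMUSG00000015396, chr13:43784775-43803132, plus strand) encodes a marker of activated and light zone B cells that protects MHC class II and CD86 from MARCH1. Libraries read 246, 239 and 251 CPM in D6, 459, 447 and 431 in IgE iGC and 537, 549 and 545 in IgG1 iGC. The PC values were 102, 103 and 91.1 CPM for IgE and 198, 274 and 246 for IgG1. IgG1 PC libraries overlapped those of D6 (-0.03, 95% interval -0.23 to 0.16, adjusted p = 0.746), whereas IgE PC was 2.48-fold below D6 (log2 -1.31, SE 0.09, adjusted p = 2.12e-09). With total-count scaling the IgG1 PC value became -0.31 and was called, beside a median of -0.27 over all genes. Cd83 fell from iGC to PC by 4.51-fold in IgE (log2 -2.17, SE 0.09, adjusted p = 1.05e-11) and 2.27-fold in IgG1 (log2 -1.18, SE 0.09, adjusted p = 2.49e-08), and the falls differed by -0.99 (SE 0.13, adjusted p = 1.94e-05). IgE PC was 2.43-fold lower than IgG1 PC (log2 -1.28, SE 0.09, adjusted p = 1.66e-08). The iGC groups do not overlap either, at -0.29 (95% interval -0.48 to -0.09), but the adjusted p was 0.0959, and it was called (4.14e-04) only in a fit of those 2 groups alone.

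Cd69 (ENSMUSG00000030156, chr6:129267325-129275436, minus strand), an early activation antigen that binds S1PR1 and holds lymphocytes in tissue, moved against the ligands. Libraries read 22.4, 25.3 and 26.5 CPM in D6, 30.3, 36.5 and 45.5 in IgE iGC and 32.1, 37.1 and 41.2 in IgG1 iGC. They read 92.5, 98.7 and 129.9 CPM in IgE PC and 30.0, 42.2 and 36.4 in IgG1 PC. Only the IgE PC libraries stood apart at the top, and the other 3 sorted groups overlap. Cd69 rose 2.88-fold from IgE iGC to IgE PC (log2 1.53, SE 0.17, adjusted p = 1.31e-06), while in IgG1 the difference was -0.02 (95% interval -0.38 to 0.35, adjusted p = 0.940). On TPM, with limma, the IgG1 difference was -0.53 and called lower in PC (adjusted p = 0.0297), and the IgE rise was 0.68 (adjusted p = 0.00740). The difference between the isotypes' changes was 1.54 (SE 0.23, adjusted p = 1.31e-04). IgE PC exceeded IgG1 PC 2.94-fold (log2 1.56, SE 0.16, adjusted p = 2.05e-06), and the iGC groups differed by 0.01 (95% interval -0.36 to 0.38). All sorted groups were above D6 on the TMM scale, 4.33-fold in IgE PC and between 1.47-fold and 1.50-fold in the others; the IgG1 PC call was lost with total-count scaling (0.28, adjusted p = 0.158). On TPM no group but IgE PC was called against D6, with 0.40 in IgE iGC (adjusted p = 0.0982), 0.39 in IgG1 iGC (adjusted p = 0.106) and -0.14 in IgG1 PC (adjusted p = 0.534).

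Cd24a (ENSMUSG00000047139, chr10:43578284-43584265, plus strand) encodes the GPI-anchored glycoprotein CD24, a ligand of Siglec-G. Libraries read 279, 297 and 287 CPM in D6, 678, 644 and 652 in IgE iGC and 481, 446 and 441 in IgG1 iGC. In PC they read 1058, 1006 and 1129 CPM for IgE and 806, 759.5 and 633 for IgG1. IgE libraries were above IgG1 libraries at both stages with no overlap, by 0.53 (SE 0.08, adjusted p = 7.72e-04) in iGC and 0.54 (SE 0.08, adjusted p = 2.58e-05) in PC. The rise from iGC to PC was 0.69 (SE 0.08, adjusted p = 9.63e-07) in IgE and 0.69 (SE 0.08, adjusted p = 2.24e-06) in IgG1, and the test of their difference gave 0.01 (95% interval -0.23 to 0.25, adjusted p = 0.964). IgE iGC and IgG1 PC, neighbours in the order of levels, overlap. This rise depended on the scale: on the deposited TPM, with limma, it was -0.04 in IgE (adjusted p = 0.503) and 0.14 in IgG1 (adjusted p = 0.0429), whereas the isotype difference in PC was 0.33 (adjusted p = 4.25e-04) there. Every sorted group was above D6, from 1.59-fold in IgG1 iGC to 3.70-fold in IgE PC.

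Cd44 (ENSMUSG00000005087, chr2:102811141-102901665, minus strand) encodes the hyaluronan receptor CD44, an adhesion molecule of activated lymphocytes and plasma cells. Libraries read 544, 590.1 and 595 CPM in D6, 243, 243 and 243 in IgE iGC and 293, 278 and 298 in IgG1 iGC. For PC the values were 538, 512 and 553 CPM in IgE and 398, 446 and 424 in IgG1. The order of the isotypes turned round between the stages: IgE lay below IgG1 in iGC and above it in PC, with no overlap in either. The differences were -0.25 (SE 0.06, adjusted p = 0.0189) in iGC and 0.34 (SE 0.06, adjusted p = 1.09e-04) in PC. The former was no longer called when any 1 of 5 of the 6 libraries was left out, and the latter was 0.08 (adjusted p = 0.300) with total-count scaling. On TPM neither was called, at -0.29 in iGC (adjusted p = 0.189) and 0.02 in PC (adjusted p = 0.891). The rise from iGC to PC was 1.14 (SE 0.06, adjusted p = 7.34e-11) in IgE and 0.54 (SE 0.06, adjusted p = 9.45e-07) in IgG1, and their difference 0.59 (SE 0.08, adjusted p = 3.71e-05). On the deposited TPM the rise was 0.41 in IgE (adjusted p = 0.00204) and 0.10 in IgG1 (adjusted p = 0.402). Both iGC groups were below D6, 2.37-fold in IgE and 1.99-fold in IgG1. IgE PC overlapped D6 (-0.11, adjusted p = 0.0907) and had the lowest fibroblast marker sum of the 5 groups; on TPM it was below D6 (-0.94, adjusted p = 7.70e-07). As for Cd80, D6 replicate 1 had the lowest Cd44 of its group beside the lowest fibroblast sum. In IgG1 PC, replicate 1 again had the lowest Cd44, 398 CPM, with a fibroblast sum of 226 CPM against 86.1 in replicate 2. The part of feeder RNA in these levels was not tested.

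**Figure D3:**
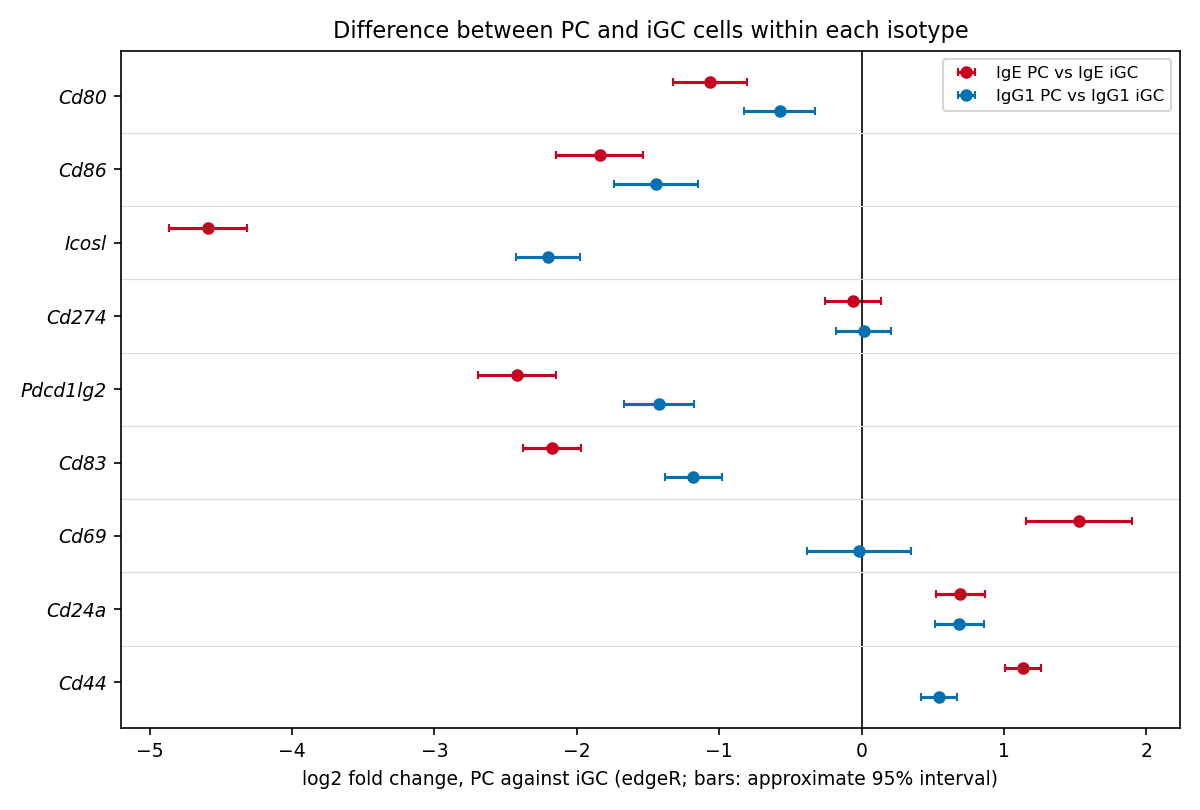
log2 fold change from iGC to PC (x axis) of each gene (rows) in IgE (red) and IgG1 (blue), with approximate 95% intervals from the standard error. The intervals of the 2 isotypes overlap for Cd80, Cd86, Cd274 and Cd24a; by the test of the difference, Icosl, Pdcd1lg2, Cd83 and Cd80 fell further in IgE and Cd69 and Cd44 rose further; on the TPM scale the Cd24a values are -0.04 in IgE and 0.14 in IgG1, and those of Cd44 0.41 and 0.10.

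Set side by side, the genes followed 3 courses from iGC to PC. Cd80, Cd86, Icosl, Pdcd1lg2 and Cd83 fell in both isotypes and stood lower in IgE PC than in IgG1 PC; the test of a larger fall in IgE passed for the other 4 on the TMM scale, and for Cd86 with total-count scaling and on TPM but not for Cd80 on TPM. Cd24a and Cd44 rose in both isotypes on the TMM scale, and Cd69 rose in IgE. Cd274 was not called between the stages on the TMM scale and was called lower in PC of both isotypes on TPM. In all, the isotype by stage term was called for 6 of the 9 genes, 2 higher and 4 lower, beside 42.9% of all tested genes, 19.8% higher and 23.1% lower. The median of the 9 log2 values was -1.06 between the IgE stages and -0.58 between the IgG1 stages, beside -0.08 and 0.01 over all genes. Between IgE PC and IgG1 PC it was -0.53 beside -0.05, and total-count scaling moved the all-gene median there to -0.30. Fibroblast markers differed in the same contrasts: 13 of the 14 tested were lower in IgE PC than in IgG1 PC, and 12 were higher in IgG1 PC than in IgG1 iGC. Within IgG1 PC, replicates 1 and 3 had sums of 226 CPM and replicate 2 of 86.1, and the part of such RNA in the isotype differences was not tested. The myeloid and dendritic list also summed lower in every IgE PC library than in any IgG1 PC library: 5 of its 6 tested members were called lower (median -2.30), the largest in level being Flt3 at 8.86 CPM against 43.1 and Zbtb46 at 2.47 against 11.8. Its part in the differences was not tested. The PC groups also differed in markers of stage, beside 58.1% of all genes called (27.4% higher, 30.7% lower). Of 8 plasma cell markers, 6 were called higher in IgE PC and 0 lower (median 0.75). Of 8 B cell markers, 0 were called higher and 4 lower (median -0.50). The part of plasma cell stage in the isotype differences was not tested.

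**Figure D4:**
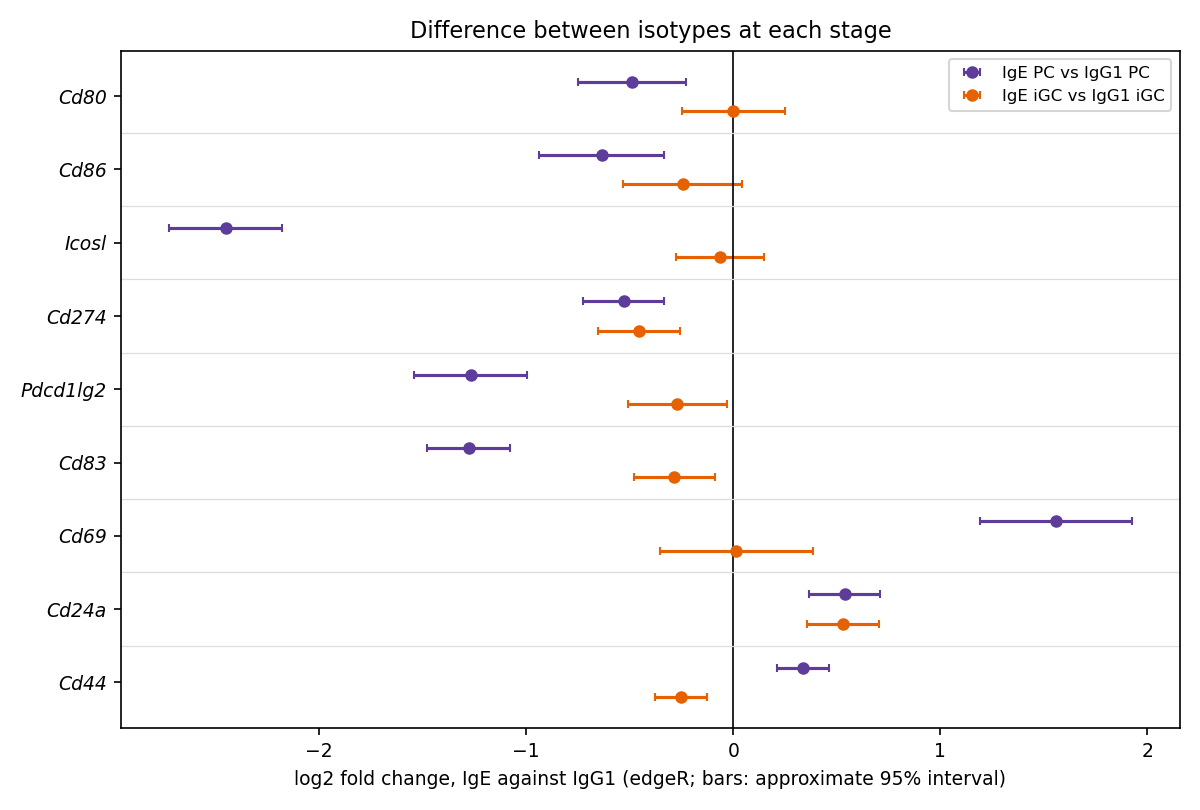
log2 fold change of IgE against IgG1 (x axis) for each gene (rows) among PC (purple) and iGC (orange), with approximate 95% intervals. All 9 PC intervals lie off 0, with Icosl at -2.45 and Cd69 at 1.56 the farthest, while Cd274, Cd24a and Cd44 were the genes called among iGC; the Cd44 difference among PC was 0.08 with total-count scaling.

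Seen from D6, Cd80 and Cd44 were the 2 genes lower in both iGC groups, and Cd80, Icosl and Cd83 the 3 lower in IgE PC. Icosl was below D6 in IgE PC and 4.18-fold above it in IgG1 PC (log2 2.06, SE 0.11, adjusted p = 3.00e-10). The scale bears on the small differences in this set: under total-count scaling Cd44 in IgE PC fell to -0.64 and was called.

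**Figure D5:**
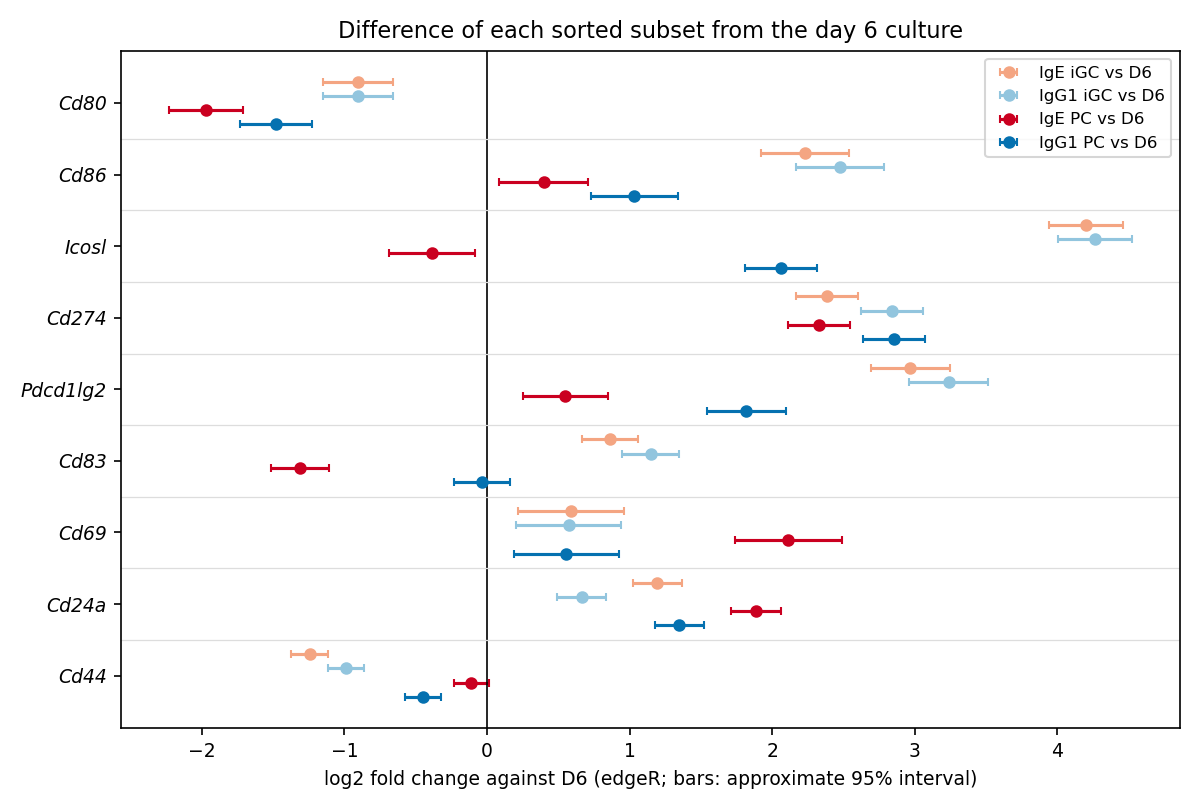
log2 fold change of the 4 sorted subsets (colours) against the day 6 culture (x axis) for each gene (rows), with approximate 95% intervals. Cd86, Icosl, Cd274 and Pdcd1lg2 lie between 2.23 and 4.26 in the iGC groups, Cd80 lies left of 0 in all 4 subsets, and the Cd86 and Pdcd1lg2 points of IgE PC (0.40 and 0.55) drop to -0.13 and 0.02 with total-count scaling.

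Levels of different genes were compared in TPM. Cd24a was the most abundant of the 9 in every group by its mean, from 288 ± 12.0 TPM in D6 to 594 ± 7.53 in IgE iGC (n = 3), with Cd83 next in the iGC groups (334 ± 6.40 in IgE and 413 ± 10.6 in IgG1). The IgG1 iGC values of Cd24a (416 ± 14.8) and Cd83 lay within their spread of each other. In IgE PC Cd44 was next (135 ± 1.75), then Cd69 (49.3 to 68.0 over its libraries) and Cd83 (44.5 ± 4.33), and the ligand genes were at the bottom: 8.97 ± 0.601 for Cd274, 7.74 ± 0.945 for Cd86, 7.16 ± 0.418 for Cd80, 2.40 ± 0.348 for Pdcd1lg2 and 1.21 ± 0.173 for Icosl. The libraries of Cd274 and Cd86 overlap, as do those of Cd86 and Cd80.

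Of 40 other costimulatory and coinhibitory genes on a list, 34 could be tested; Icos, Vtcn1, Btn1a1, Cd27, Cd160 and Cd226 were below the filter. Between IgE PC and IgE iGC 6 were called higher and 18 lower in PC (median -0.55, all genes -0.08), where 64.1% of all tested genes were called, and between the IgG1 stages 12 were higher and 12 lower (median -0.12, all genes 0.01), beside 59.1%. IgE PC had 7 higher and 21 lower than IgG1 PC (median -0.42, all genes -0.05), beside 58.1%, and the iGC groups 1 higher and 4 lower, beside 3.87%. Cd28, for the receptor of CD80 and CD86, rose from iGC to PC as Cd80 and Cd86 fell. It was at 0.835 ± 0.165 CPM in IgE iGC, 0.846 ± 0.179 in IgG1 iGC, 61.5 ± 4.80 in IgE PC and 17.1 ± 2.92 in IgG1 PC. IgE PC exceeded IgG1 PC by 1.85 (SE 0.15, adjusted p = 7.48e-08). In D6, where on the TMM scale Cd80 was highest and Cd86 lowest, Cd28 was at 11.2 ± 2.55 CPM, above both iGC groups. Cd28 is also a T cell gene. The list of 9 T cell markers, which holds it, summed to 62.5 to 71.5 CPM in IgE PC, with 3 genes at 1 CPM or more (Cd28, Cd2 and Trac) and Cd3e at 0. Tigit, an inhibitory receptor of T and NK cells, was at 0.181 ± 0.0844 CPM in IgE iGC, against 19.2 ± 2.37 in IgE PC and 11.2 ± 1.99 in IgG1 PC. Vsir, which encodes the B7-like molecule VISTA, stood at 154 ± 4.62 CPM in IgE PC against 32.1 ± 1.22 in IgE iGC, and at 122 ± 16.3 in IgG1 PC against 31.8 ± 0.733 in IgG1 iGC. Btla, for an inhibitory receptor, fell in both isotypes, a log2 change of -1.75 (SE 0.16, adjusted p = 1.41e-07) in IgE and -1.42 (SE 0.16, adjusted p = 2.54e-06) in IgG1. Icam1, the ligand of LFA-1, was lower in IgE than in IgG1 at both stages, with a log2 difference of -0.39 (SE 0.05, adjusted p = 3.71e-04) in iGC and -0.40 (SE 0.05, adjusted p = 8.87e-06) in PC.

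The second list held 12 genes for partners and regulators of the 9 products, and all could be tested. Between IgE PC and IgG1 PC 7 were called higher and 3 lower (median 0.24, all genes -0.05), beside 58.1% of all genes. Between the IgE stages 5 were higher and 6 lower in PC (median -0.13, all genes -0.08, 64.1% called), and between the IgG1 stages 4 and 7 (median -0.24, all genes 0.01, 59.1% called). Between the iGC groups 0 were called, beside 3.87% of all genes, with 1 at an unadjusted edgeR p below 0.05 and 0 by DESeq2 or by limma on TPM. March1, for the ubiquitin ligase that removes CD86 and MHC class II from the surface, was at 24.5 ± 6.22 CPM in D6, 159 ± 3.73 in IgE iGC, 172 ± 4.97 in IgG1 iGC, 8.73 ± 1.32 in IgE PC and 34.9 ± 12.1 in IgG1 PC. It fell between the stages, a log2 change of -4.18 (SE 0.24, adjusted p = 2.28e-09) in IgE and -2.29 (SE 0.22, adjusted p = 8.34e-07) in IgG1, alongside Cd86. March8, its close relative, moved the other way: IgE PC had 24.0 ± 1.00 CPM and IgE iGC 3.23 ± 0.233, and IgG1 PC had 13.2 ± 1.95 and IgG1 iGC 2.72 ± 0.527. Siglecg, for the receptor of CD24, fell by 1.70 (SE 0.08, adjusted p = 6.41e-11) in IgE as Cd24a rose on the TMM scale. S1pr1, whose product CD69 binds, was higher in IgE PC than in IgG1 PC by 0.61 (SE 0.11, adjusted p = 2.88e-04), the direction of Cd69. Between the IgE stages S1pr1 went the other way from Cd69, from 71.0 ± 1.86 CPM in iGC to 50.6 ± 4.47 in PC. Between the IgG1 stages S1pr1 fell by 0.95 (SE 0.11, adjusted p = 4.71e-06). Cmtm6, for a protein that stabilises PD-L1, was at 107 ± 4.23 CPM in IgG1 iGC and 118 ± 3.21 in IgG1 PC. Msn, for the linker of CD44 to actin, fell by 0.92 (SE 0.07, adjusted p = 1.26e-08) in IgE while Rdx, for its relative radixin, rose by 0.43 (SE 0.09, adjusted p = 6.32e-04). Changes between the stages in both lists are given on the TMM scale only. Total-count scaling moved the all-gene median from -0.08 to -0.55 between the IgE stages and from 0.01 to -0.22 between the IgG1 stages, so small rises such as those of Rdx and Cmtm6 may depend on the scale. Adam10, for a protease that sheds CD44, was higher in IgE PC than in IgG1 PC by 0.61 (SE 0.08, adjusted p = 8.87e-06).

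For each gene the 3 genes with the most similar profile were found among 8928 candidates, by the root mean square difference of centred log2 CPM over the 15 libraries. This is a description across libraries that share culture, depth and scaling. The range of that difference is given first, then the gene's own root mean square deviation from its mean. The nearest to Cd80 were Dkc1, Ppid and Pus7l (0.10 to 0.13; 0.67), and to Cd86 Rap1gap2, Siglecg and Mndal (0.14 to 0.17; 1.00), so Siglecg of the second list was among them. Those of Icosl were Ackr2, Il12a and Pirb (0.35 to 0.41; 1.98), of Cd274 Wdr90, Serpina3g and Acss1 (0.28 to 0.30; 1.06) and of Pdcd1lg2 Trim30b, Coq8a and Stap1 (0.18 to 0.25; 1.28). Those of Cd83 were Bcl7a, Ly86 and Fam111a (0.10 to 0.14; 0.87) and of Cd69 Trim30a, Calcrl and Plekhm3 (0.23 to 0.24; 0.73). Those of Cd24a were Ube2h, Hinfp and Lysmd1 (0.11 to 0.12; 0.65) and of Cd44 Cad, Pgrmc1 and Hk2 (0.10 to 0.11; 0.49). Among the 9 themselves, Cd86 and Pdcd1lg2 were the closest pair (0.35), followed by Cd69 and Cd24a (0.44), while Cd274 and its neighbour Pdcd1lg2 were at 0.91 and the B7 genes Cd80 and Cd86 at 1.21.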

How the data were processed

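Gene levels were measured by RNA-seq of polyA RNA in 15 libraries (single-end, strand-specific reads of 76 bases, per the labels' protocols). Per the submitters' processing notes the tools were cutadapt 1.9.1, STAR 2.5.2a, RSEM 1.3.0 and DESeq2 1.12.3, with the build GRCm38. The authors deposited 1 table of 51912 genes with an expected count and a TPM for each library; per the file headers, the expected count is RSEM's estimate of reads per gene. TPM values in the deposited table are scaled by transcript length and to a common library total. All 9 genes had whole counts in every library. Groups came from the titles. Counts were rounded, filtered with filterByExpr (15692 genes kept), scaled by TMM and fitted with edgeR 4.0.16 (quasi-likelihood, 10 residual degrees of freedom), with Benjamini-Hochberg adjustment over all tested genes and a threshold of 0.05. The common coefficient of variation was 10.4%. The fit was also run on counts simulated from its own estimates, with few genes altered. That run does not bear on how the scale moved results where most genes were called. Gene positions are from GENCODE vM21 and promoters from RefSeq. Alternatives were total-count scaling, DESeq2 1.42.0, no filter, a replicate block, only the groups compared, limma 3.58.1 on log2(TPM + 1), a prior count of 2, and each library left out. From each list, up to 3 called genes a direction in the 5 comparisons among sorted groups, with at least 10 CPM in a group, could be named. The 9 genes, the lists and the motifs were chosen with earlier results of these data known.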

Additional observations from a re-analysis of the deposited data

Results flagged for a closer look

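In 6 of the 9 genes, IgE and IgG1 differed in their change between the stages by edgeR's interaction term, the test of the difference itself. On the log2 scale the difference, IgE minus IgG1, was -0.49 for Cd80, -0.99 for Cd83, -2.39 for Icosl and -0.997 for Pdcd1lg2, all falls that were larger in IgE. It was 1.54 for Cd69, which rose in IgE with a change of -0.02 in IgG1, and 0.59 for Cd44, which rose in both. Total-count scaling gave -0.74, -1.24, -2.63, -1.24, 1.29 and 0.35 in the same order of genes, and limma on TPM gave -0.54, -1.09, -1.85, -0.84, 1.21 and 0.31, with Cd80 and Cd44 no longer called on TPM. Fibroblast markers showed the same term, with 11 of 14 tested called lower (median -2.64), and so did the myeloid and dendritic markers, with 6 of 6 tested lower (median -1.99); their part in these differences was not tested.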

How the results depend on the processing

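Most member values kept their direction and call. The count of genes called among the 9 moved in the comparison of IgE iGC with IgG1 iGC, from 3 to 6 with only the groups compared, to 1 with limma on TPM and to 1 to 3 with a library left out; it was 1 without IgE iGC replicate 1. Over all settings the count ran from 6 to 9 for IgE PC against D6 (8 as reported), from 5 to 7 for the isotype by stage term (6), and within 1 gene of the reported count in the other comparisons. Over all genes the comparison of IgE iGC with IgG1 iGC had 607 calls, 1503 with only its groups, 922 by DESeq2 and 323 to 403 with a library left out. The isotype by stage term had 6733, or 4345 by limma on TPM. Signs turned for differences near 0, and with total-count scaling or on TPM also for some called differences. Cd80 between the iGC groups became 0.0073 by DESeq2 and 0.0025 with the replicate block (-0.0422 to 0.0450 with a library left out). Cd274 between the IgG1 stages became -0.21 with total-count scaling, -0.0048 by DESeq2 and -0.56 on TPM, where it was called (-0.0944 to 0.0863 with a library left out). The Cd24a term became -0.23 with total-count scaling, -0.0048 with only the groups compared and -0.19 on TPM (-0.0857 to 0.0822). Against D6, Cd86 in IgE PC, 0.40 and called higher as reported, became -0.13 with total-count scaling. On TPM, with limma, it became -0.52 and was called lower (adjusted p = 0.00987). Pdcd1lg2 in IgE PC, 0.55 and called higher as reported, became -0.25 on TPM. Cd69 in IgG1 PC, 0.56 and called higher as reported, became -0.14 on TPM. Cd24a between the IgE stages, 0.69 and called higher as reported, became -0.0447 on TPM. With a library left out, Cd69 spanned -0.14 to 0.15 between the iGC groups and -0.16 to 0.10 between the IgG1 stages, the Cd274 term -0.16 to 0.0218, and Cd83 in IgG1 PC against D6 -0.13 to 0.0927. The cause was not tested. Replicate numbers did not pair libraries (same-numbered deviations correlated at -0.195 to 0.0908), and the replicate block changed no call among the 9 genes, the Cd80 sign above being its only turn. Depth limits the small differences of Icosl and Pdcd1lg2 in D6 and IgE PC, where no library exceeded 4.57 CPM.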
